A study of Mus musculus with 8 samples.

Results

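The genes described here are the receptors *Egfr*, *Erbb2* and *Erbb3*, the EGF-like ligands *Areg*, *Ereg*, *Hbegf*, *Tgfa*, *Btc* and *Epgn*, and the receptor inhibitor *Errfi1*. They were picked by symbol and make up 10 of the 28712 genes listed for the sequenced RNA. The RNA came from 4T1 cells, a mouse mammary tumor line described as triple-negative, which were kept at 1% O2 and treated once confluent with a purified single-domain antibody (sdAb) at 0.5 μg/mL. sdAb#07.81 recognizes NUPR1, a stress-induced nuclear protein, and sdAb-Con is its control. Both proteins carry a 3xFlag tag, the cOdc1 degron, the cell-entering Tat peptide and a 6xHis tag. Cells given sdAb#07.81 were collected after 24 h and after 48 h and cells given sdAb-Con after 48 h, with 2 libraries in each of these 3 groups. The Con group was not analysed here. All groups come from a single cell line, and the labels do not say whether the 2 libraries of a group were separate cultures, so p-values measure only the spread between these libraries. No sdAb-Con group at 24 h was analysed, so the change between 24 h and 48 h of sdAb#07.81 cannot be told apart from the added day in culture.

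ErbB receptors are tyrosine kinases of the cell surface that work as pairs. EGFR binds the EGF-like ligands directly, ERBB2 has no known ligand and serves as the preferred partner, and ERBB3 binds neuregulins but has little kinase activity of its own and recruits PI3-kinase. The EGF-like ligands are made as membrane-bound precursors that metalloproteases of the ADAM family cut free, and they act on the cell that made them or on its neighbours. ERRFI1, also called MIG6, is induced by growth factors and binds the active receptor kinases to switch them off. In the mammary gland, amphiregulin (AREG) is the ligand needed for the ducts to grow.

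The libraries held 12897528 to 15947523 counts in genes whose counts were resolved, and their size factors ranged from 0.914 to 1.09. *Nupr1*, the gene of the antibody's target, had normalized counts (counts divided by the library's size factor) of 1554 and 2134 at 24 h of sdAb#07.81, 2919 and 2921 at 48 h, and 3579 and 2999 with sdAb-Con for 48 h. Its log2 fold change between the antibodies at 48 h was -0.17 (adjusted p = 0.453, limma). It was called higher at 48 h than at 24 h of sdAb#07.81 (log2 fold change 0.68, adjusted p = 0.000477, limma). With sdAb-Con at 48 h it was also called higher than with sdAb#07.81 at 24 h (0.85, adjusted p = 3.9e-05, limma). These are RNA levels and do not give the level of the protein. The 6 epithelial markers with resolved counts, 5 keratins and *Epcam*, summed to normalized counts of 35481 to 44251 per library, while *Krt5* was not listed. Of them, only *Krt14* was called between 24 h and 48 h of sdAb#07.81, falling from 651 and 588 to 234 and 262. The other 5 had log2 fold changes from -0.17 for *Krt8* to 0.20 for *Krt19* there. With sdAb-Con at 48 h, *Krt14* was also called lower than at 24 h of sdAb#07.81 (-0.80). *Krt7* (0.34) and *Krt19* (0.35) were called higher there. Of the hormone receptor genes, *Pgr* had at most 2 counts in a library, whereas *Esr1* had normalized counts of 271 to 453. These are RNA levels, and receptor protein was not measured here. Of 7 immune cell markers, only *Cd68* passed the count minimum and the other 6 had a mean of 3.17 counts or less. The immune markers' summed normalized counts, nearly all from *Cd68*, were 244 to 273 at 24 h, 508 to 663 with sdAb#07.81 at 48 h and 651 to 1052 with sdAb-Con at 48 h. The 6 fibroblast markers summed to 1297 to 1512, 1016 to 1199 and 1059 to 1065 in the same order, a sum that came mostly from *Pdgfra*, which fell from 24 h to 48 h of sdAb#07.81 (956 and 1246 to 655 and 627). The 4 endothelial markers summed to at most 13.8. Library b of sdAb#07.81 at 24 h stood apart in the collagen genes of this list and in *Dcn*, but not in *Pdgfra*. It held 0 counts of *Col3a1*, against normalized counts of 84.5 to 146 in the other 5 libraries. It held 7.64 of *Col1a2*, against 115 to 161, and 2.87 of *Dcn*, against 30.6 to 47.7. The fibroblast markers *Col1a1*, *Col1a2* and *Col3a1* passed the test as higher at 48 h than at 24 h of sdAb#07.81 although these groups overlapped in all 3. Without library b at 24 h none of them passed, and their log2 fold changes were -0.12, -0.26 and -0.42 (adjusted p = 0.698, 0.393 and 0.180, limma). The part of these marker differences in the results below was not tested.

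*Epgn*, *Ereg*, *Areg* and *Btc* lie in a cluster on chromosome 5 that spans 375.53 kb in the tables' coordinates, for which no genome build is named. *Epgn* runs from 91175323 to 91183074, *Ereg* from 91222481 to 91241505 and *Areg* from 91287458 to 91296291, all on the + strand, and *Btc* from 91505120 to 91550853 on the - strand. *Egfr* (16702203 to 16868158) and *Erbb2* (98303296 to 98328542) are both on chromosome 11, *Erbb3* is on chromosome 10 (128403392 to 128425521), *Tgfa* on chromosome 6 (86172205 to 86252701) and *Errfi1* on chromosome 4 (150938376 to 150953349). Promoter sequences were found by symbol for 7 of the 10 genes in RefSeq (GRCm38.p6). Stretches of 160 bases that end just before the start site are shown for 3 of them, namely *Areg* and *Errfi1*, the called genes with the largest decreases between 24 h and 48 h of sdAb#07.81, and *Btc*, the gene with the largest increase. The *Errfi1* stretch belongs to the second of its 2 listed start sites, and the first held no match. Capitals mark matches on either strand to a cAMP response element (TGACGTCA), a GC box (GGGCGG) and a TATA box (TATAAA).
Areg upstream region, chr5:91139439-91139598, + strand: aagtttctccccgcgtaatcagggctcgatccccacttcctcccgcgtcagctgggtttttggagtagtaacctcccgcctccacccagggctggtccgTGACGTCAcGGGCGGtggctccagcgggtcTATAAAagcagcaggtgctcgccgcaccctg
Errfi1 upstream region, chr4:150854910-150855069, + strand: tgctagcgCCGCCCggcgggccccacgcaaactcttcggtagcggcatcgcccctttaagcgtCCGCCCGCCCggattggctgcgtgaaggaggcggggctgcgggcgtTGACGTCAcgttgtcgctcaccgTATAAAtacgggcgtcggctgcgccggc
Btc upstream region, chr5:91402995-91403154, - strand: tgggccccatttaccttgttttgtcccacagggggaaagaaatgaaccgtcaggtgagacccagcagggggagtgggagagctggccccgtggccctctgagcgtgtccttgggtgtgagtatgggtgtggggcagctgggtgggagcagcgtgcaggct
*Areg* and *Errfi1* shared a layout that the search found in no other of these promoters, with a cAMP response element 61 and 51 bases upstream of the start and a TATA box 31 and 28 bases upstream. In *Areg* a GC box begins 52 bases upstream, downstream of the response element without overlapping it. Another begins 37 bases after the start, outside the stretch shown. In *Errfi1* a GC box begins 152 bases upstream and a pair of overlapping GC boxes begins 97 and 93 bases upstream. Among 32851 promoter windows of the same length, from 250 bases before to 50 bases after a start, 1.79% held the response element, 13.6% the TATA box and 35.7% the GC box. The *Btc* window held none of these letters, nor AP-1 (TGANTCA, 7.81% of promoters) or amino acid response (TGATGNAA, 3.97%) matches, and neither did that of *Erbb2* or of the first *Errfi1* start site. A GC box was the only match in *Egfr* and *Tgfa*, and a TATA box the only match in *Epgn*. How often the response element and the TATA box occur in the same promoter was not counted. A match is a description of the letters and does not show that a factor was bound. Its link to the changes in RNA was not tested.

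Between 24 h and 48 h of sdAb#07.81, most of the expressed genes of this system changed, and in both directions. The receptors *Egfr* and *Erbb3* and the ligand *Btc* rose, whereas the receptor *Erbb2*, the ligands *Areg* and *Tgfa* and the inhibitor *Errfi1* fell. *Hbegf* did not pass the test, and *Ereg* and *Epgn* were too low to be tested. So 7 of the 8 tested genes were called, 3 higher and 4 lower, in a comparison in which 42.9% of all 13848 tested genes were called, 20.9% as higher and 22.1% as lower. The 2 groups did not overlap in any of the 8 genes, against 71.1% of all tested genes. The median log2 fold change was -0.29 over the 8 genes and -0.01 over all tested genes.

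**Figure D1:**
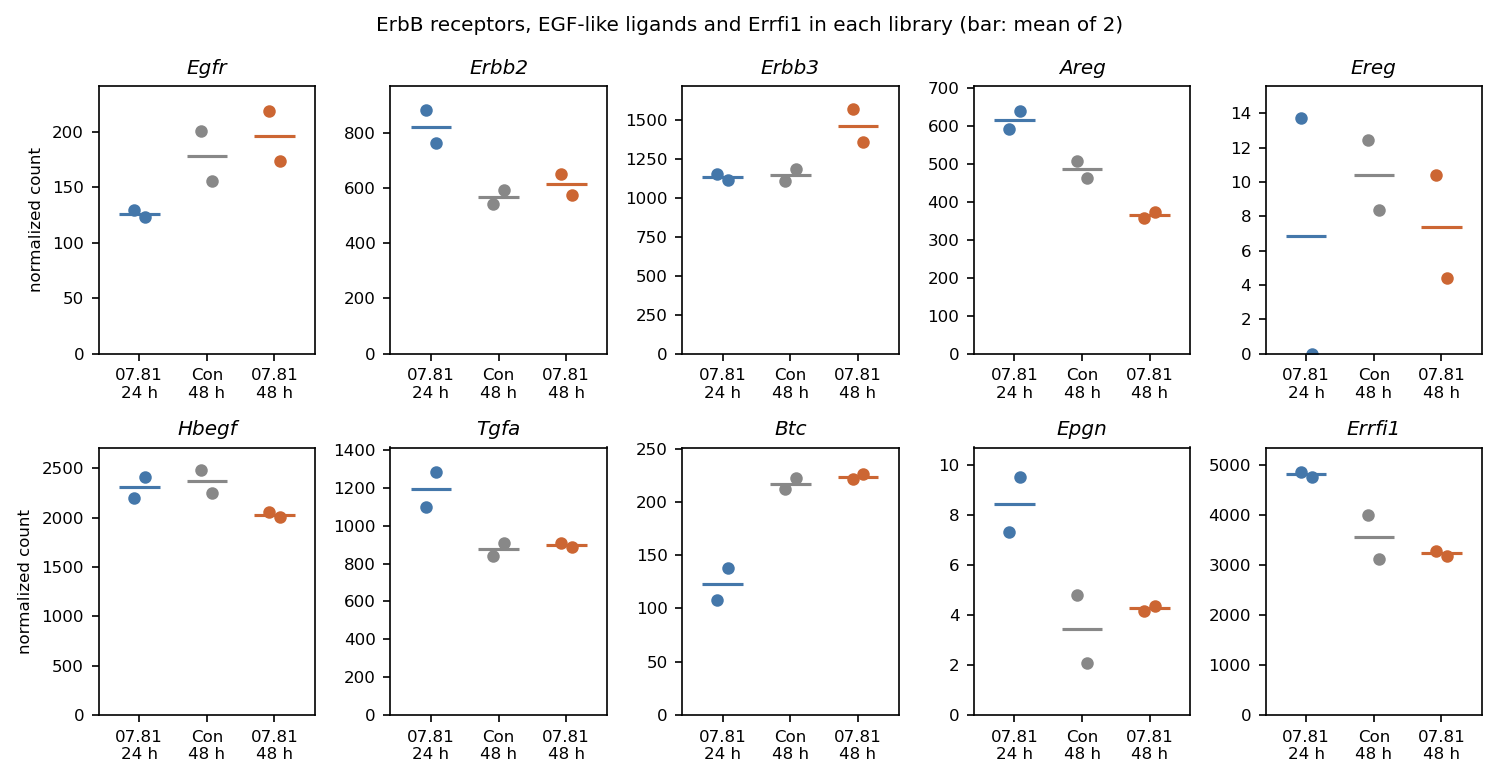
Normalized counts of the 10 genes, a panel each with its own axis from 0, with points for the 2 libraries of each group and a bar for their mean. *Areg* was at 591 and 638 with sdAb#07.81 at 24 h. At 48 h it was at 508 and 463 with sdAb-Con and 356 and 372 with sdAb#07.81, without passing the test between them (adjusted p = 0.0693, limma). *Btc* was at 108 and 138 with sdAb#07.81 at 24 h. At 48 h it was at 212 and 222 with sdAb-Con and 221 and 227 with sdAb#07.81.

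With the antibody as the only labelled difference, at 48 h, none of the 8 tested genes passed an adjusted p of 0.05 by limma, where 9.77% of all tested genes did, 6.3% as higher and 3.47% as lower. None passed with limma's trend in place of voom weights either. At an unadjusted p under 0.05 there were 2 of 8, *Erbb3*, higher with sdAb#07.81, and *Areg*, lower, where 26.5% of all tested genes had such a p. The groups did not overlap for *Erbb3*, *Areg* and *Hbegf*, 3 of 8 genes, against 58.7% of all tested genes. The median log2 fold change was 0.04 over the 8 genes and -0.02 over all. With only the 4 libraries compared in the fit, *Erbb3* (adjusted p = 0.0372) and *Areg* (adjusted p = 0.0411) both passed, in a fit that called 15.2% of all its tested genes. They also passed without library a or b at 24 h, in fits that called 14.9% and 15.2%. Over all 14 alternatives, the adjusted p ranged from 0.0372 to 0.567 for *Erbb3* and from 0.0408 to 0.461 for *Areg*.

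The remaining pair of groups, sdAb-Con for 48 h against sdAb#07.81 for 24 h, differs in antibody and time at once, and it equals the difference between the other comparisons, with which it shares its libraries. Here 5 of the 8 genes were called, *Btc* higher and *Areg*, *Erbb2*, *Tgfa* and *Errfi1* lower, where 51.0% of all tested genes were called, 25.1% as higher and 25.9% as lower. The groups did not overlap in 6 of the 8 genes, against 74.6% of all tested genes. The median log2 fold change was -0.16 over the 8 genes and 0.00 over all.

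**Figure D2:**
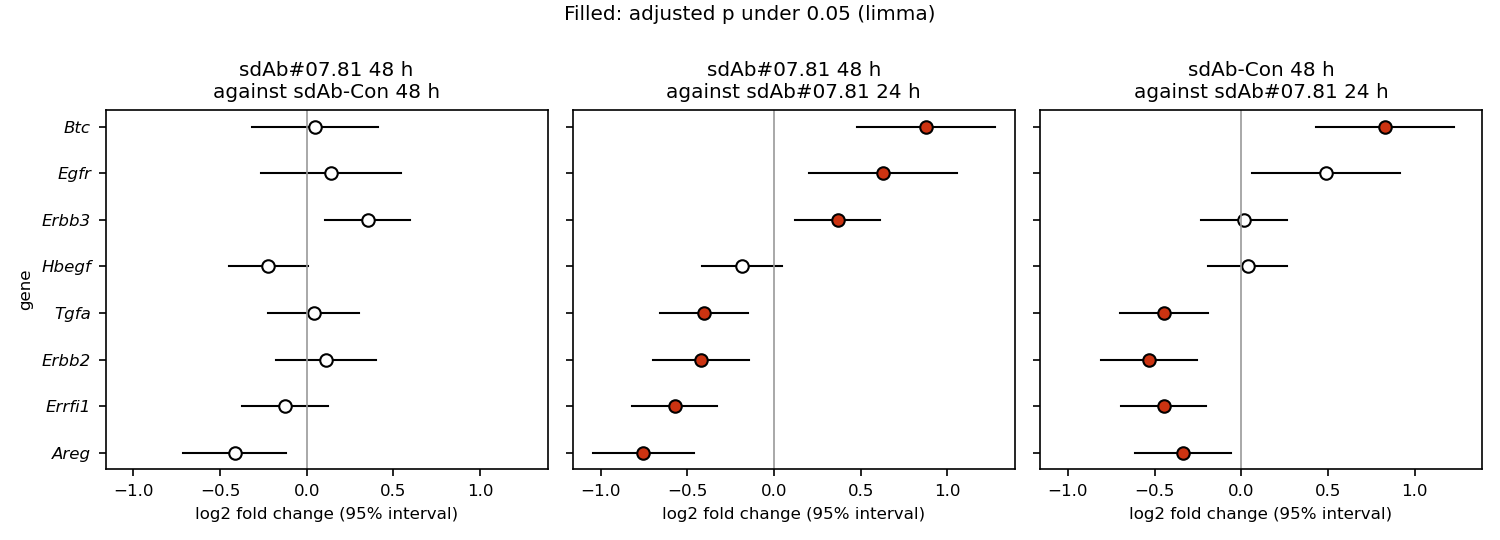
Log2 fold changes of the 8 tested genes (points) with 95% intervals from limma (lines), in a panel for each pair of groups, ordered by the change between 24 h and 48 h of sdAb#07.81. No gene is filled, meaning an adjusted p under 0.05, in the panel of the antibodies at 48 h, 7 are filled between 24 h and 48 h of sdAb#07.81 and 5 in the remaining panel.

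*Egfr*, the receptor of all 6 ligands, was the least abundant of the 3 receptors. Its normalized counts were 129 and 123 at 24 h of sdAb#07.81, 219 and 174 at 48 h, and 201 and 155 with sdAb-Con at 48 h. Both 24 h libraries were below all 48 h libraries, and the antibody groups at 48 h overlapped. *Egfr* rose 1.55-fold from 24 h to 48 h of sdAb#07.81 (log2 fold change 0.63, SE 0.203, adjusted p = 0.0178 by limma). Without library a of sdAb#07.81 at 48 h, the call was lost with a log2 fold change of 0.46 (adjusted p = 0.185), as it was without the filter on low counts (adjusted p = 0.0600), with a range over all 14 alternatives of 0.00818 to 0.185. Between sdAb-Con at 48 h and sdAb#07.81 at 24 h, its log2 fold change was 0.49 (adjusted p = 0.0526), and 7 of 14 alternatives called it, with adjusted p from 0.00221 to 0.375. It was 0.83 after correction for gene length, GC content and level, an alternative chosen after the data were seen, and 0.30 without library a of sdAb-Con. Between the antibodies at 48 h, the log2 fold change was 0.14 with a 95% interval of -0.27 to 0.55.

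*Erbb2* had normalized counts of 882 and 763 at 24 h, 652 and 575 at 48 h of sdAb#07.81, and 544 and 593 with sdAb-Con. Both 24 h libraries were above the 4 libraries at 48 h. It fell 1.34-fold between 24 h and 48 h of sdAb#07.81 (log2 fold change -0.42, SE 0.132, adjusted p = 0.0150 by limma) and was 1.45-fold lower with sdAb-Con at 48 h than with sdAb#07.81 at 24 h (log2 fold change -0.53, adjusted p = 0.00259). The first of these calls was lost without library a at 24 h (adjusted p = 0.102) or library b of sdAb#07.81 at 48 h (adjusted p = 0.145, range over all alternatives 0.00584 to 0.145), and the second held in all 14 alternatives. At 48 h, sdAb#07.81 and sdAb-Con differed by 0.11 in log2 fold change, with a 95% interval of -0.18 to 0.40.

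*Erbb3*, the neuregulin receptor, was the only receptor whose 2 sdAb#07.81 libraries at 48 h stood above all others. The normalized counts were 1566 and 1359 there, 1151 and 1113 at 24 h, and 1108 and 1184 with sdAb-Con at 48 h. It rose 1.29-fold between 24 h and 48 h of sdAb#07.81 (log2 fold change 0.37, SE 0.117, adjusted p = 0.0164 by limma). The call was lost without library b at 24 h (adjusted p = 0.0589) or library a of sdAb#07.81 at 48 h (adjusted p = 0.189, range over all alternatives 0.00597 to 0.189). Against sdAb-Con at 48 h, it was 1.27-fold higher but did not pass (log2 fold change 0.35, SE 0.117, 95% interval 0.10 to 0.60, adjusted p = 0.0634). Between sdAb-Con at 48 h and sdAb#07.81 at 24 h, in contrast, the log2 fold change was 0.02 (95% interval -0.23 to 0.26).

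Among the tested ligands, *Areg* had the largest decrease between 24 h and 48 h of sdAb#07.81. Its normalized counts were 591 and 638 at 24 h of sdAb#07.81, 508 and 463 with sdAb-Con at 48 h, and 356 and 372 with sdAb#07.81 at 48 h, so that no pair of groups overlapped. It fell 1.69-fold between 24 h and 48 h of sdAb#07.81 (log2 fold change -0.75, SE 0.139, adjusted p = 0.000251 by limma), a call that held in all 14 alternatives. With sdAb#07.81 at 48 h it was 1.33-fold below sdAb-Con without passing the test (log2 fold change -0.42, SE 0.143, 95% interval -0.72 to -0.12, adjusted p = 0.0693), and after correction for gene length, GC content and level the log2 fold change was -0.18 (adjusted p = 0.461, range over all alternatives 0.0408 to 0.461). With sdAb-Con at 48 h it was 1.26-fold lower than with sdAb#07.81 at 24 h (log2 fold change -0.34, adjusted p = 0.0395). That last call was lost in 9 of 14 alternatives, with adjusted p from 0.000584 to 0.212, and after correction for gene length, GC content and level its log2 fold change was -0.64.

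*Btc*, which encodes betacellulin, a ligand of EGFR and ERBB4, moved the other way. It had normalized counts of 108 and 138 at 24 h, 221 and 227 with sdAb#07.81 at 48 h, and 212 and 222 with sdAb-Con at 48 h. It rose 1.83-fold between 24 h and 48 h of sdAb#07.81 (log2 fold change 0.88, SE 0.190, adjusted p = 0.00112 by limma) and was 1.78-fold higher with sdAb-Con at 48 h than with sdAb#07.81 at 24 h (log2 fold change 0.83, SE 0.189, adjusted p = 0.00128). Both calls held in all 14 alternatives. The 4 libraries at 48 h lay between 212 and 227 whichever antibody was used, and the log2 fold change between the antibodies was 0.05 with a 95% interval of -0.32 to 0.41.

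*Tgfa*, which encodes TGF-alpha, had normalized counts of 1100 and 1286 at 24 h, 909 and 888 with sdAb#07.81 at 48 h, and 840 and 909 with sdAb-Con at 48 h. As for *Erbb2*, both 24 h libraries lay above all 48 h libraries and the antibodies overlapped at 48 h. It fell 1.32-fold between 24 h and 48 h of sdAb#07.81 (log2 fold change -0.40, SE 0.122, adjusted p = 0.0122 by limma) and was 1.36-fold lower with sdAb-Con at 48 h than with sdAb#07.81 at 24 h (log2 fold change -0.44, adjusted p = 0.00519). Leaving out library b at 24 h ended both calls (adjusted p = 0.0985 and 0.0505), as did library b of sdAb#07.81 at 48 h for the first (adjusted p = 0.0700) and library a of sdAb-Con for the second (adjusted p = 0.0658). Over all 14 alternatives the adjusted p ran from 0.00474 to 0.0985 for the first and from 0.00182 to 0.0658 for the second.

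*Hbegf*, the heparin-binding ligand, was the ligand with the highest counts. Its normalized counts were 2203 and 2415 at 24 h of sdAb#07.81, 2053 and 2004 at 48 h, and 2486 and 2249 with sdAb-Con at 48 h. The sdAb#07.81 libraries at 48 h were the lowest, yet no comparison passed the test in any of the 14 alternatives. The log2 fold change was -0.22 against sdAb-Con at 48 h (95% interval -0.45 to 0.01, adjusted p = 0.207 by limma) and -0.19 against sdAb#07.81 at 24 h (95% interval -0.41 to 0.04, adjusted p = 0.183).

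*Ereg* and *Epgn*, which encode epiregulin and epigen, had mean counts of 8.33 and 5.50, under the minimum of 10. *Ereg* had 15 and 0 counts at 24 h of sdAb#07.81, 10 and 4 at 48 h, and 13 and 8 with sdAb-Con at 48 h. By counting error alone, 0 counts allow up to 3, and replicate libraries differed by more than that error. The library with 0 counts is the one in which *Col3a1* was also at 0, and the link was not tested. *Epgn* had 8 and 10 counts at 24 h, 4 and 4 with sdAb#07.81 at 48 h, and 5 and 2 with sdAb-Con at 48 h. Fitted without the count minimum, neither gene passed in any comparison (lowest adjusted p 0.243 for *Ereg* and 0.206 for *Epgn*, limma). What size of change these counts could show was not tested.

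*Errfi1* was the most abundant of the 10 genes. Its normalized counts were 4867 and 4768 at 24 h of sdAb#07.81, 3288 and 3188 at 48 h, and 4007 and 3115 with sdAb-Con at 48 h. Both 24 h libraries were above all 48 h libraries, and the sdAb-Con libraries lay on either side of those of sdAb#07.81. It fell 1.49-fold between 24 h and 48 h of sdAb#07.81 (log2 fold change -0.57, SE 0.117, adjusted p = 0.000665 by limma), which held in all 14 alternatives, and was 1.36-fold lower with sdAb-Con at 48 h than with sdAb#07.81 at 24 h (log2 fold change -0.45, adjusted p = 0.00371). The second call was lost without library b of sdAb-Con (log2 fold change -0.26, adjusted p = 0.109, range over all alternatives 0.00068 to 0.109). Between the antibodies at 48 h its log2 fold change was -0.13 with a 95% interval of -0.37 to 0.12.

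Levels per kb of exon were taken with all annotated exons of a gene merged. Which transcripts these cells express was not determined, so the order of genes depends on this length. The mean level per kb over the 6 libraries was 1081 normalized counts for *Errfi1*, 462 for *Hbegf*, 402 for *Areg*, 207 for *Erbb3* and 152 for *Tgfa*. It was 128 for *Erbb2*, 41.6 for *Btc*, 14.7 for *Egfr*, 2.98 for *Epgn* and 1.99 for *Ereg*. In this order the ranges over libraries overlapped between *Hbegf* and *Areg*, between *Erbb3* and *Tgfa*, between *Tgfa* and *Erbb2*, and between *Epgn* and *Ereg*. The other neighbours did not overlap. Among the receptors, the level per kb thus ran from *Erbb3* through *Erbb2* to *Egfr*.

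The changes in single ligands altered their mixture. At 24 h of sdAb#07.81, *Areg* made up 42.5% and 41.7% of the 6 ligands' counts per kb. *Hbegf* made up 39.9% and 39.7%, so *Areg* was ahead by this measure. This order rests on the exon lengths used, 1215 bases for *Areg* and 4834 for *Hbegf*. In normalized counts *Hbegf* was ahead there, with 2203 and 2415 against 591 and 638 for *Areg*. At 48 h of sdAb#07.81, *Areg* was down to 32.1% and 33.6% and *Hbegf* stood at 46.6% and 45.5%. With sdAb-Con at 48 h, the shares of *Areg* were 37.5% and 36.7% and those of *Hbegf* 46.1% and 44.8%. *Hbegf* was ahead in all 4 libraries at 48 h. The share of *Btc* was 2.10% and 2.42% at 24 h, 5.37% and 5.50% with sdAb#07.81 at 48 h, and 4.21% and 4.73% with sdAb-Con at 48 h. Shares add up to a fixed sum, so a rise of one ligand's share need not mean more of its RNA, and they were not tested.

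**Figure D3:**
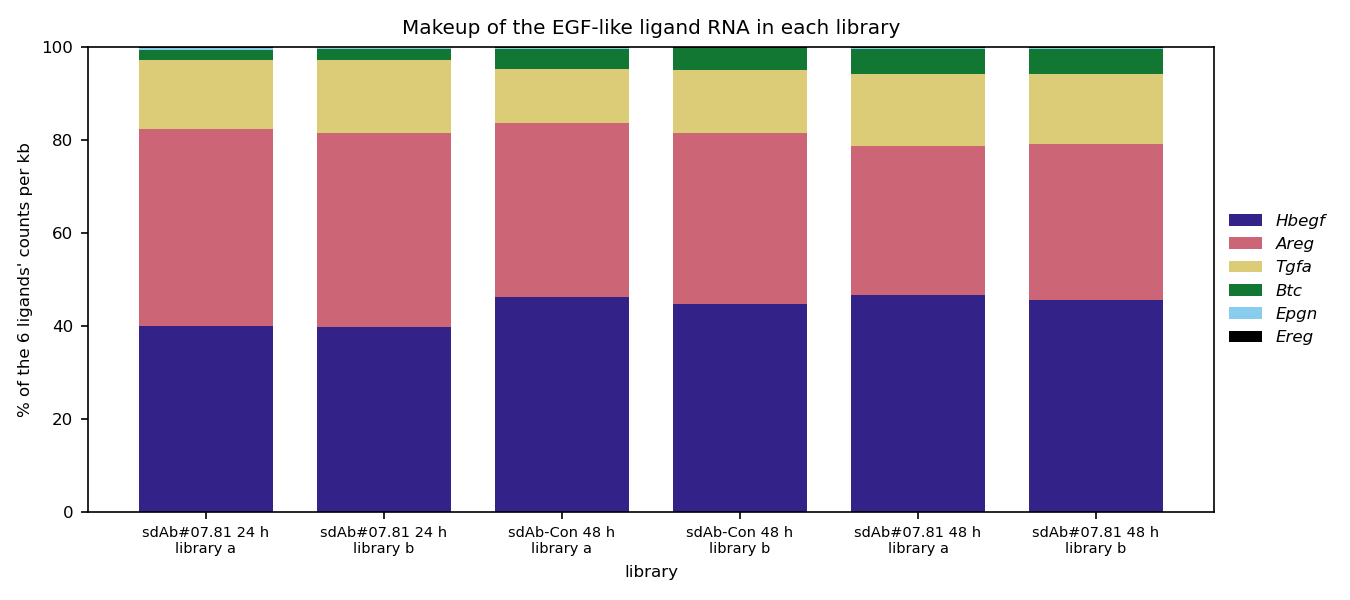
Share of each of the 6 ligands in their summed counts per kb of exon, in percent, for each library. *Areg* took 42.5% and 41.7% at 24 h of sdAb#07.81 but 32.1% and 33.6% at 48 h, while *Epgn* and *Ereg* are barely visible.

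Other genes of the pathway were described in 5 lists. Of the 6 other ErbB family genes, *Erbb4* had 1 count in all libraries together and *Nrg3* was also below the minimum. None of the 4 tested was called in any comparison, among them *Nrg1*, a ligand of ERBB3, with normalized counts of 606 and 610 at 24 h, 723 and 663 with sdAb#07.81 at 48 h, and 665 and 562 with sdAb-Con. After correction for gene length, GC content and level, *Nrg1* was called higher with sdAb-Con at 48 h than with sdAb#07.81 at 24 h (log2 fold change 0.36, adjusted p = 0.0175, limma), 1 of 14 alternatives, with adjusted p from 0.0175 to 1.00 over them. *Egf*, the ligand that gives the family its name, was low, with normalized counts of 12.5 and 21.9 with sdAb#07.81 at 48 h, 32.6 and 33.4 with sdAb-Con, and 14.7 and 21.0 at 24 h. The antibodies did not overlap at 48 h, but the difference did not pass (log2 fold change -0.98, SE 0.412, adjusted p = 0.136, limma). With a library left out, this log2 fold change of *Egf* ran from -1.37 to -0.58. Of the 6 tested genes for ligand shedding, 3 fell and none rose between 24 h and 48 h of sdAb#07.81, beside 22.1% lower and 20.9% higher among all tested genes. With the log2 fold change in parentheses, they were *Adam17*, the main protease that releases *Areg*, *Hbegf* and *Tgfa* products (-0.41), its partner *Rhbdf1* (-0.39) and *Adam12* (-1.28). *Adam12* was also the only one of the 6 called between the antibodies at 48 h, where 9.77% of all tested genes were called. Its normalized counts were 393 and 489 at 24 h, 313 and 366 with sdAb-Con at 48 h, and 196 and 164 with sdAb#07.81 at 48 h, and it was lower with sdAb#07.81 than with sdAb-Con by a log2 fold change of -0.91 (SE 0.184, adjusted p = 0.00501, limma). That call was lost without library b of sdAb-Con (adjusted p = 0.0688, range over all alternatives 0.000437 to 0.0688), and those of *Adam17* (adjusted p = 0.0549) and *Rhbdf1* (adjusted p = 0.153) without library b of sdAb#07.81 at 48 h.

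Of the 12 adaptors and effectors, 2 were higher with sdAb#07.81 than with sdAb-Con at 48 h and none was lower, beside 6.3% higher and 3.47% lower among all tested genes. They were *Pik3r1*, a regulatory subunit of PI3-kinase (log2 fold change 0.72, adjusted p = 0.00318 by limma), and the RAS exchange factor *Sos1* (0.46, adjusted p = 0.0193). *Pik3r1* had normalized counts of 1510 and 1177 with sdAb#07.81 at 48 h, above the 836 and 780 with sdAb-Con and the 850 and 1003 at 24 h. The call of *Pik3r1* between the antibodies was lost without library a of sdAb#07.81 at 48 h (adjusted p = 0.116) or library b of sdAb-Con (adjusted p = 0.0535), with a range over all alternatives of 0.000217 to 0.116. The call of *Sos1* was lost in 5 of 14 alternatives, among them those without library a of sdAb#07.81 at 48 h (adjusted p = 0.383) and without library a (adjusted p = 0.0578) or b of sdAb-Con (adjusted p = 0.180), with a range of 0.00713 to 0.383. It was also lost after correction for gene length, GC content and level, where the log2 fold change was 0.16 (adjusted p = 0.380). Between 24 h and 48 h of sdAb#07.81, where 42.9% of all tested genes were called, 7 of the 12 adaptors were. Of these, 5 rose, among them *Gab2* (0.54), *Pik3r1* (0.53) and *Nck2* (0.41), and 2 fell, with *Eps8* showing the largest change (-0.76). Leaving out library a of sdAb#07.81 at 48 h ended the calls of *Gab2* (adjusted p = 0.0727) and *Pik3r1* (adjusted p = 0.0957) there, and leaving out library b ended that of *Nck2* (adjusted p = 0.0653). Of the 13 genes of receptor turnover and inhibition, 2 were higher with sdAb#07.81 than with sdAb-Con at 48 h, *Socs4* (0.45) and the ubiquitin ligase *Cbl* (0.40), and none was lower, beside the same 6.3% and 3.47% of all tested genes. Each of these calls was lost in 6 of 14 alternatives. Both were among those lost after correction for gene length, GC content and level, with log2 fold changes of 0.18 for *Socs4* (adjusted p = 0.342) and 0.18 for *Cbl* (adjusted p = 0.353). For *Socs4* the alternatives included leaving out any of the 4 libraries compared (adjusted p of at least 0.0631), and for *Cbl* leaving out library a of sdAb#07.81 at 48 h (adjusted p = 0.509) or library a (adjusted p = 0.296) or b of sdAb-Con (adjusted p = 0.0873). Over all alternatives the adjusted p ran from 0.00798 to 0.342 for *Socs4* and from 0.0189 to 0.509 for *Cbl*. Between 24 h and 48 h of sdAb#07.81, 6 of these 13 fell (22.1% of all tested genes), among them the phosphatase *Ptpn12* (-0.72), *Sh3kbp1* (-0.61) and the receptor inhibitor *Lrig1* (-0.44), and *Cblc* rose (0.65, with 20.9% of all tested genes called higher).

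The 15 growth factor response genes, which follow the MAP kinase cascade in many cells, held the largest changes of the 5 lists in both comparisons with the 24 h group, but not between the antibodies at 48 h. Between 24 h and 48 h of sdAb#07.81, 9 fell and 2 rose, beside 22.1% lower and 20.9% higher among all tested genes, and the median log2 fold change was -0.66. *Ccnd1*, which encodes cyclin D1, went from normalized counts of 19944 and 20791 to 5622 and 5097 (log2 fold change -1.93, SE 0.137, adjusted p = 4.23e-09, limma). The ETS factors *Etv5* (-1.87) and *Etv4* (-1.86) fell by similar amounts, while *Fos* rose (2.00), from 150 and 60.2 to 376 and 394. The size of that rise depended on the 24 h libraries, with a log2 fold change of 2.67 without library a and 1.35 without library b, and the call held in all 14 alternatives. The sdAb-Con libraries at 48 h were also far from the 24 h libraries. Their *Ccnd1* was 5200 and 7772, and 8 of the 15 genes were lower and 2 higher than at 24 h of sdAb#07.81, where 25.9% and 25.1% of all tested genes were. Between the antibodies at 48 h, only *Etv4* of the 15 was called, with 311 and 324 for sdAb#07.81 and 489 and 528 for sdAb-Con (log2 fold change -0.68, SE 0.145, adjusted p = 0.00686, limma). This call was lost without library a of sdAb#07.81 at 48 h (adjusted p = 0.127), without library b of sdAb-Con (adjusted p = 0.0767) and after correction for gene length, GC content and level (adjusted p = 0.0566), with a range over all alternatives of 0.00145 to 0.127. The median of the 15 genes was -0.21 in that comparison, beside -0.02 over all tested genes.

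Between sdAb-Con at 48 h and sdAb#07.81 at 24 h, 1 shedding gene was higher and 3 were lower, 3 adaptors were higher and 3 lower, and 1 turnover gene was higher and 7 lower, out of 6, 12 and 13 tested. Among all tested genes, 25.1% were higher and 25.9% lower. *Cbl* (-0.79) and *Socs4* (-0.84) were among the 7, so that both had lower levels with sdAb-Con at 48 h than in either sdAb#07.81 group, with the limits on the comparison at 48 h given above. After correction for gene length, GC content and level these 2 values were -0.49 for *Cbl* and -0.51 for *Socs4*, and both stayed called (adjusted p = 0.00173 and 0.000911, limma).

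**Figure D4:**
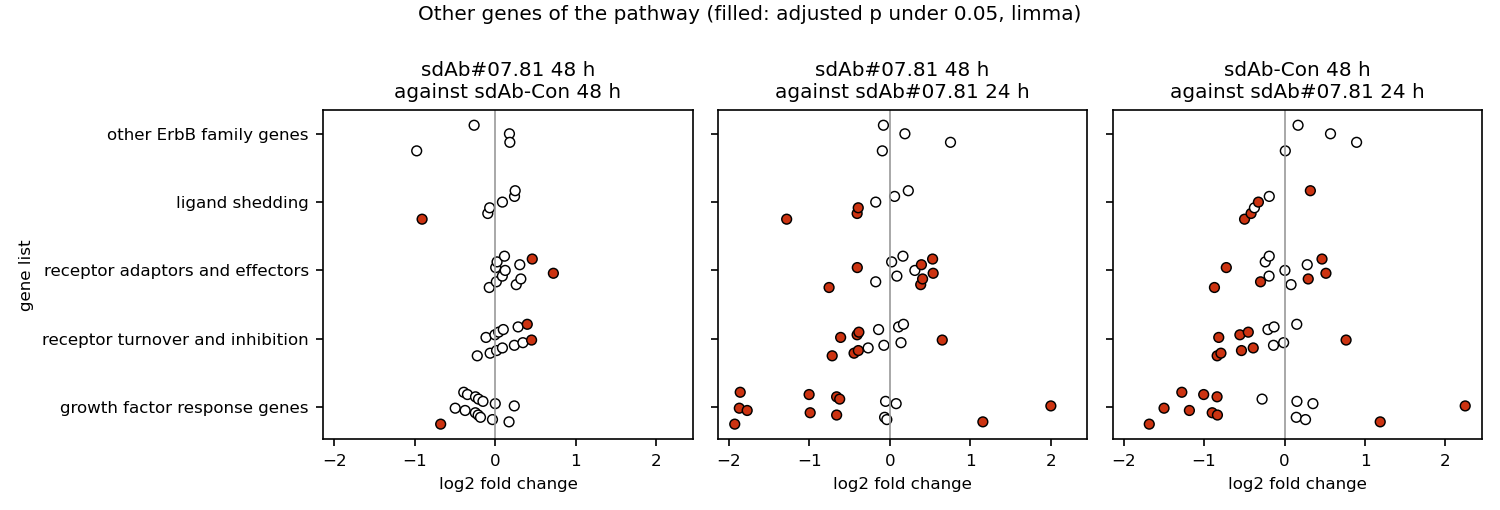
Log2 fold changes of the tested genes of the 5 lists, a point per gene, in a panel for each pair of groups, with filled points for an adjusted p under 0.05 (limma). The vertical spread within a list has no meaning. In the panel of 48 h against 24 h of sdAb#07.81, the growth factor response genes run from -1.93 for *Ccnd1* to 2.00 for *Fos*, and in the panel of the antibodies at 48 h only *Etv4* is filled among them.

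The genes most like *Erbb3*, the receptor with the highest mean count, over the 6 libraries were *Gm6548*, *Mfsd2b* and *Arvcf*, with Pearson's r of 0.992, 0.986 and 0.978 on log2 levels. For *Hbegf*, the ligand with the highest mean count, *Efemp2* (0.994) and *Cryl1* (0.987) were among the closest. These are descriptions, since the 6 libraries fall into 3 groups and the genes were picked as the closest of 13848. *Gm6548* is a predicted gene, and its count may hold reads of a similar gene.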

How the data were processed

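RNA of 4T1 cells was sequenced in 4 groups of 2 libraries, and the 2 deposited tables cover 3 of the groups. Per the submitters' processing notes, cutadapt 1.9.1, HISAT2 2.0.1 and HTSeq 0.6.1 were used. These notes name the human build GRCh38.p14, whereas the tables list mouse genes, so no build is given for the tables' coordinates. Whether counting used strand is not given in the sources used here. The signal used was the authors' mean, over the 4 libraries of a table, of counts divided by size factors. The tables' other columns hold the authors' own fold changes, standard errors, statistics and p-values, which were not used.

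The means are printed to 15 significant digits, so each is a sum of whole counts times the 4 libraries' steps, and the counts per library were recovered by an integer search that used the libraries shared by both tables. Exactly 1 solution was found for 28584 of 28712 genes (99.6%) and for all 28481 genes with a mean under 10000. The other 128, which held 20.4% and 24.1% of the summed means and include *Cdh1*, were left out. Each library is tied to its group by the table that holds it, and the letters a and b are arbitrary. The normalized counts here therefore rest on counts recovered in this way.

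All 6 libraries were fitted together with limma 3.58.1 (voom weights, R 4.3.3) after median-of-ratios scaling. Genes with a mean of at least 10 counts (13848) were tested, two-sided, with Benjamini-Hochberg adjustment over all of them and a threshold of 0.05. The recovery and the fit were tested on simulated data. Median standard errors of the log2 fold change were 0.151 to 0.153. Replicate libraries differed by more than counting noise, with a median chi-square per gene of 1.82 to 2.84.

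Levels per kb used exon lengths of GENCODE vM21, with all annotated exons of a gene merged. Named were all 10 genes, up to 4 called genes per pathway list and comparison with the largest change, and the 3 genes most correlated with the receptor and the ligand of highest mean count. *Egf*, *Nrg1*, *Nrg3*, *Erbb4* and the marker genes were named beyond this rule, and some genes under it are not reported here. Genes and lists were chosen with earlier results of these data known. Other scalings, filters, pseudocounts, samples and single left-out libraries were tried, and a correction for length, GC content and level was added after the data were seen. All other steps used Python 3.11.15, numpy 2.4.6 and pandas 2.3.3.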

Additional observations from a re-analysis of the deposited data

How the results depend on the processing

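No paired analysis was possible because the recovered libraries carry no replicate numbers. Among the called changes rerun gene by gene, those of the ErbB system genes, of *Krt14*, of 3 collagen genes and of most pathway genes named, only those of the collagens reversed. With a library left out, the log2 fold change between 24 h and 48 h of sdAb#07.81 ran from -0.12 to 2.23 for *Col1a1*, from -0.26 to 4.06 for *Col1a2* and from -0.42 to 7.84 for *Col3a1*, lowest without library b at 24 h and highest without library a. The highest *Col3a1* value is set against 0 counts and depends on the prior count. Log2 fold changes near 0 that were not called crossed 0 under some alternatives, those of *Nupr1*, *Egfr*, *Tgfa*, *Btc* and *Errfi1* between the antibodies at 48 h and those of *Erbb3* and *Hbegf* between sdAb-Con at 48 h and sdAb#07.81 at 24 h, as did *Nrg1* there. Between the antibodies at 48 h, 1353 genes were called (872 higher), and this count was the least stable. It was 546 without a filter on low counts, 2090 with only the 4 libraries compared, 543 after correction for gene length, GC content and level (chosen after the data were seen) and 580 at a change of at least 1.5-fold. Leaving out a library gave 212 to 2104 genes, with 212 without library a of sdAb#07.81 at 48 h, 386 and 340 without library a or b of sdAb-Con, and 2069 and 2104 without library a or b at 24 h. Upper-quartile scaling called 752 of 1472 genes higher (51.1%, against 64.4%). The number of ErbB system genes called there went from 0 to 2 with only the 4 libraries compared, and from 0 to 2 over the left-out libraries.

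Between 24 h and 48 h of sdAb#07.81, 5945 genes were called, 3658 at 1.5-fold or more and 4274 to 5705 with a library left out. The ErbB system genes called numbered 5 to 7 over the left-out libraries. Between sdAb-Con at 48 h and sdAb#07.81 at 24 h, the 7064 genes became 4534 at 1.5-fold or more and 5026 to 6906 with a library left out, with 3 to 5 ErbB system genes. The 2 libraries of a group limit the precision, with a median standard error of 0.151 to 0.153 in log2 fold change.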
